A study of Myzus persicae with 4 samples.

Results

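Of 7554 contigs measured in head RNA of the aphid Myzus persicae, 29 gave more signal from nicotine-fed than from control insects in each of 3 biological replicates. A contig is a sequence assembled from overlapping cDNA reads and is counted here as 1 unit. Whether some contigs come from the same transcript was not tested. The 29 contigs were chosen on their log2 ratio of nicotine over control signal, which had to be 0.4 or more in every replicate, a ratio of at least 1.32. The ratios described below are therefore the values that made the choice, and they are given as a description with no test. The array holds 10295 contigs. A probe was used if the green or the red signal was marked as well above background for each replicate (on either array of replicate 2), which left 7554 contigs and 11076 probes.

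Insects had been moved from cabbage to an artificial diet of sucrose and 20 amino acids, either as such (control) or with 100 µM nicotine added, and heads were taken after 24 h. Each array carried nicotine and control RNA in different dyes. There were 3 biological replicates and 1 repeat array of replicate 2, which was averaged with it. Nicotine RNA was green (Alexa Fluor 555) in replicates 1 and 3 and red (Alexa Fluor 647) in replicate 2, so the 2 dye orientations were not equally represented. The labels give no strain, age or number of insects per replicate, and whole heads mix several tissues. Nothing says that the replicates came from separate cultures, so a spread between them may be partly technical. In such RNA, fewer cells of a type and less RNA per cell cannot be told apart.

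Nicotine is an alkaloid of tobacco that activates nicotinic acetylcholine receptors, the main excitatory receptors of the insect brain. Myzus persicae feeds on many plant families and has a tobacco-adapted form, which is known to carry high levels of a cytochrome P450 that breaks nicotine down. The insect head holds the brain, the eyes, the antennae and the muscles that work the mouthparts. None of the contig numbers (0 of 10295) matched the RefSeq gene table built on the Myzus persicae clone G006 assembly, and no gene names accompany them in the tables used here. What the 29 contigs encode, and whether head markers are among them, is therefore not stated here, and the contigs are described by number.

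Over the 3 replicates the mean log2 ratio of the 29 contigs ran from 0.50 to 2.78, with a median of 1.20, which is 2.30-fold. By replicate, in the order 1, 2, 3, the median ratio was 1.31, 0.90 and 0.94. The mean difference reached 2-fold for 18 of the contigs. The SD between replicates had a median of 0.51 among the 29 and of 0.55 among all 7554 contigs, and the choice bears on the former. The rule took 0.384% of the contigs tested. The largest ratio of a contig lay in replicate 1 for 14 contigs, in replicate 2 for 6 and in replicate 3 for 9.

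**Figure D1:**
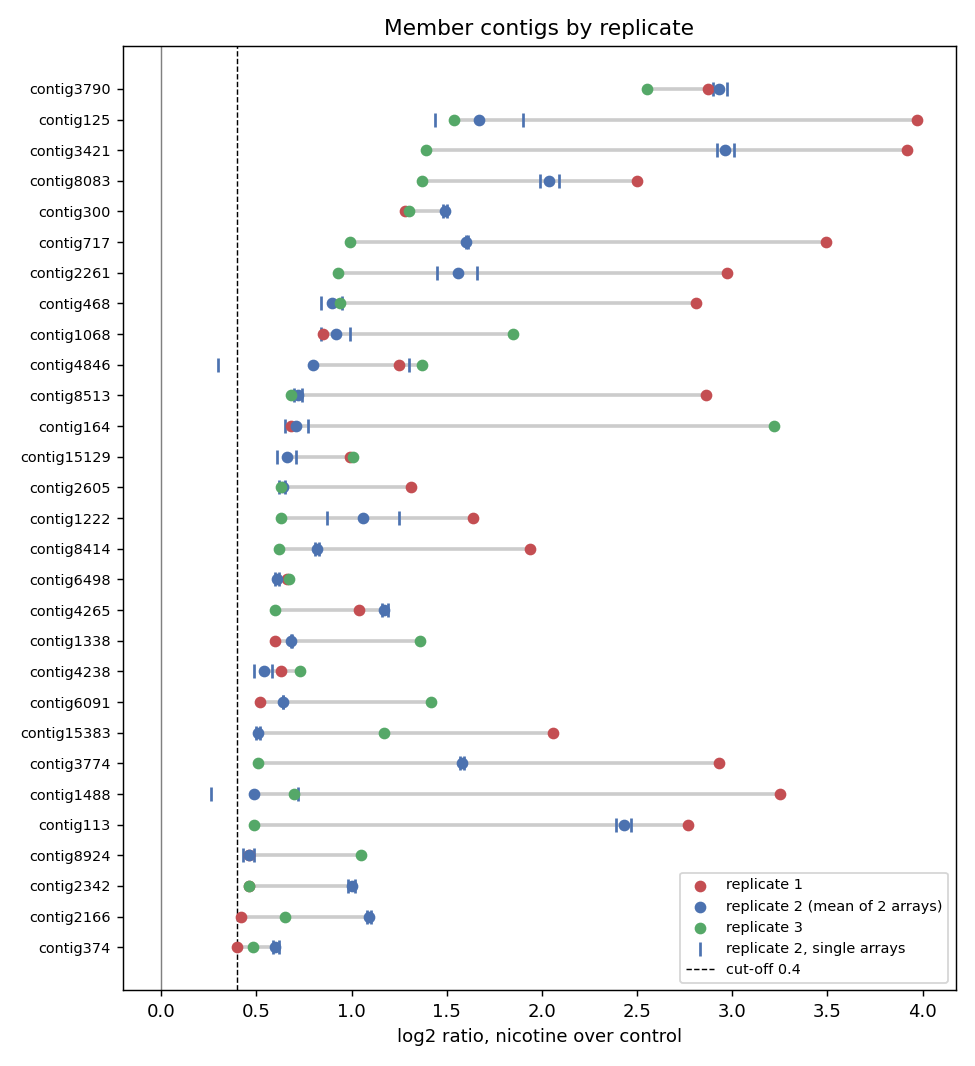
Log2 ratio of nicotine over control signal (x axis) for each of the 29 contigs (rows), with 1 point per biological replicate, ticks for the 2 arrays of replicate 2, grey bars from the lowest to the highest replicate and a dashed line at the cut-off of 0.4. For 10 contigs the bar is over 1.5 long with replicate 1 at its right end, and for contig164 replicate 3 lies far to the right of the others.

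The ratio was at least 2-fold in every replicate for 5 contigs. For contig300 it was 1.28, 1.49 and 1.30 in replicates 1, 2 and 3, a mean of 1.36 ± 0.12 (SD, n = 3) or 2.56-fold. Its control signal was well above background on 4 of 4 arrays. Among the 5, it is the contig whose replicates lay closest together. Its ratios rest on 1 probe, as do those of contig8083, while contig3790, contig3421 and contig125 had 2 tested probes.

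For contig3790 the log2 ratio was 2.87, 2.93 and 2.55, a mean of 2.78 ± 0.21 (SD, n = 3). The control signal of contig3790 was well above background on only 1 of 4 arrays, and the ratio changed with the background correction. The mean was 6.88-fold from the processed signals and 3.67-fold with another background correction, normexp, followed by loess. With the latter, contig3421 at 5.79-fold and contig125 at 3.73-fold lay above it.

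The other 3 contigs of this kind were highest in replicate 1. For contig3421 the ratios were 3.92, 2.96 and 1.39 in replicates 1, 2 and 3, a mean of 2.76 ± 1.28 (SD, n = 3). Its control signal was well above background on all 4 arrays. For contig8083 they were 2.50, 2.04 and 1.37, with a mean of 1.97 ± 0.57 (SD, n = 3) and control signal well above background on 3 arrays. For contig125 they were 3.97, 1.67 and 1.54, with a mean of 2.40 ± 1.37 (SD, n = 3), and its control signal was well above background on 2 arrays. Replicates 2 and 3 of contig125 lay close together and replicate 1 stood apart. Without replicate 1 the mean of contig125 was 1.61 and that of contig3421 was 2.17.

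A spread of at most 0.5 between the highest and lowest replicate was found for 6 contigs in the processed signals. They were contig300 and contig3790, described above, and contig15129, contig6498, contig4238 and contig374. With normexp and loess, contig3790 gave 2.64, 1.81 and 1.18 in replicates 1, 2 and 3, so its small spread depended on the background correction. For contig6498 the ratio was 0.66, 0.61 and 0.67 in replicates 1, 2 and 3, the smallest SD of the 29 at 0.03. For contig4238 it was 0.63, 0.54 and 0.73. For contig15129 it was 0.99, 0.66 and 1.01. Apart from contig300 and contig3790, the 6 had mean ratios of 0.88 or less. All 6 except contig3790 had control signal well above background on every array.

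At the other end, 10 contigs had a spread of over 1.5 with the largest ratio in replicate 1. Their ratios ran from 2.06 to 3.97 in replicate 1 but from 0.49 to 2.96 in replicate 2 and from 0.49 to 1.54 in replicate 3. Besides contig3421 and contig125, they were contig717, contig2261, contig468, contig8513, contig15383, contig3774, contig1488 and contig113. For contig717 the ratios were 3.49, 1.60 and 0.99 in replicates 1, 2 and 3. For contig8513 they were 2.86, 0.72 and 0.68, and without replicate 1 its mean dropped from 1.42 to 0.70. For contig113 they were 2.77, 2.43 and 0.49, so here replicate 3 stood apart. For 6 of the 10 contigs the control signal was not well above background on every array. The part of low signal in their spread was not tested.

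The contigs contig468 and contig2261 show how low signal limits such values. For contig468 the ratios were 2.81, 0.90 and 0.94 in replicates 1, 2 and 3, with control signal well above background on 2 arrays. For contig2261 they were 2.97, 1.56 and 0.93, but its control signal was well above background on none (0) of the arrays. Averaged over the replicates, after normexp, loess and scaling between arrays, the nicotine signal of contig2261 was at least 1.44-fold higher. This bound was set by the lowest signal well above background on each array. It need not hold in each replicate, since the nicotine signal was well above background on only 3 arrays. At most this mean bound can be read from contig2261, which passed the filter in every replicate through nicotine signal alone.

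Replicate 3 had the largest ratio for 9 contigs, and it stood apart most in contig164. For contig164 the ratios were 0.68, 0.71 and 3.22 in replicates 1, 2 and 3, a mean of 1.54 ± 1.46 (SD, n = 3), which dropped to 0.69 without replicate 3. For contig1068 they were 0.85, 0.92 and 1.85, a mean of 1.20 ± 0.56 (SD, n = 3). Replicates 1 and 2 of both contigs lay within 0.1 of each other. Both had control signal well above background on 4 of 4 arrays, and with contig374 they had the strongest control signal of the 29. The contigs contig4846, contig1338, contig6091 and contig8924 were also highest in replicate 3, at 1.37, 1.36, 1.42 and 1.05. Of these, contig4846 had control signal well above background on 2 arrays and the others on 4.

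Just inside the cut-off were contig374, contig2166 and contig2342, whose lowest ratios were 0.404, 0.425 and 0.455. Just outside were contig16, contig7 and contig1946, whose lowest ratios were 0.399, 0.398 and 0.396. The contigs on either side of the cut-off thus differ by far less than the spread between replicates.

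The signal itself limits many of the 29 ratios. The processed signal averaged over channels and replicates lay below the median of the tested contigs for 18 of the 29 and in the lowest 10% for 7. The control channel was well above background on all 4 arrays for 20 of the 29 contigs (69.0%), against 94.0% of all contigs tested. Of the 29, 8 passed the filter in at least 1 replicate through their nicotine signal alone and so had to differ there. The matching share over all contigs was not computed, so the count is given only as a limit. They were contig125, contig1488, contig2261, contig3774, contig3790, contig468, contig4846 and contig8083. None (0) of the 43 tested probes of the 29 contigs was marked as an outlier or saturated.

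For 14 of the 29 contigs 2 probes were tested, and the choice used their mean. Both probes reached 0.4 in every replicate for 11 of the 14. The exceptions were contig2342, contig2605 and contig374. The gap between the 2 probes of a contig had a median of 0.16 over contigs and replicates. The largest was 1.12, in replicate 3 of contig3790, where probe M_persicae3790a gave 3.11 and M_persicae3790b gave 1.99. For contig1222 the probes gave 2.01 and 1.28 in replicate 1. For contig2605 they gave 0.93 and 0.34 in replicate 3. The probes of a contig share the RNA, the dye and the array, so their closeness says nothing of the spread between replicates.

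Another 4 of the contigs had a second probe that was too dim for the filter and did not enter the choice. These 4 probes were above 0 in all 3 replicates. Only that of contig3774 reached 0.4 throughout, at 1.79, 1.49 and 0.72. In replicate 3 the unused probes gave 0.29 for contig468, 0.15 for contig1488 and 0.06 for contig2261, where the used probes had given 0.94, 0.70 and 0.93. The unused probes thus stood near the used ones in replicate 1, except for contig3774, and lower in replicate 3 for 3 of the 4.

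**Figure D2:**
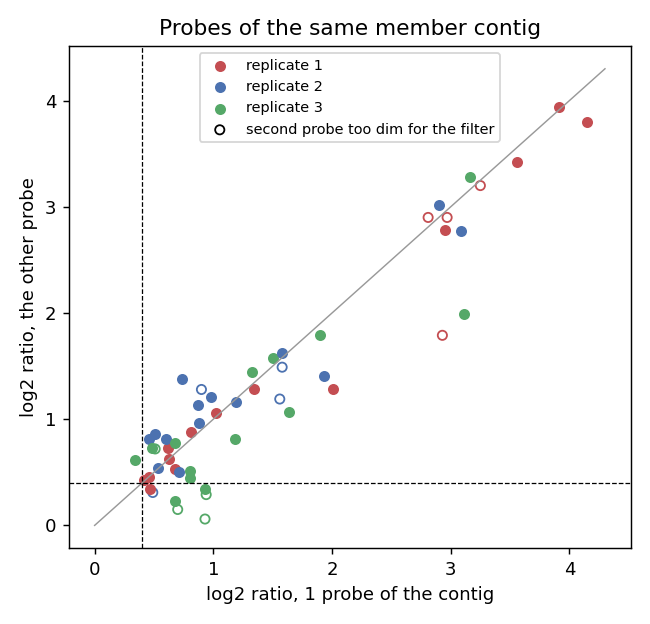
Log2 ratio of nicotine over control for 1 probe of a contig (x axis) against its other probe (y axis), for the 18 of the 29 contigs with 2 probes on the array, with 1 point per contig and replicate and dashed lines at 0.4. Open points have a second probe that was too dim for the filter, and 3 of these lie below 0.4 in replicate 3.

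The repeat array of replicate 2 measured the same RNA in the same dyes. The 2 arrays differed by a median of 0.06 over the 29 contigs and of 0.04 over all contigs. The widest gap was in contig4846, which gave 0.30 on the first array and 1.30 on the repeat array. A smaller gap was found in contig1488, with 0.26 and 0.72, and in contig125, with 1.90 and 1.44. Of the 29, contig4846 and contig1488 lay below 0.4 on the first array, and all 29 reached it on the repeat array.

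A dye effect would enter replicate 2 with the opposite sign to replicates 1 and 3. The dye term, which is the ratio in replicate 2 minus the mean of replicates 1 and 3, divided by 2, lay between -0.74 and 0.40 for the 29 contigs. Its median size was 0.18, against 0.31 over all contigs. The choice bears on the former, since it leaves out contigs whose ratios differ in sign between orientations. With the orientations weighted equally, the nicotine term was larger than the dye term in all 29 contigs, and in 28.2% of all contigs. The choice asks for ratios above 0 in both orientations, which fixes this outcome. The median nicotine term of the 29 was 1.1.

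The fit across all contigs gives the scale of the replicate error. In limma, 0 of 7554 contigs (0%) passed an adjusted p of 0.05, and the lowest adjusted p was 0.9997, which was also the value of each of the 29. At an unadjusted p under 0.05 there were 28 contigs, of which 27 (0.357% of those tested) were higher and 1 was lower with nicotine. Evenly spread p-values would put a share of 0.05 of the contigs there, far more than these 28. No direction is therefore read from the split. Without replicate 2 there were 114, of which 47 were higher and 67 lower, so the majority turned. Of the 27 higher contigs 22 were among the 29, which the choice itself favours. The scanner software gives each spot a p from its own error model, which covers the spot and not the replicates. That p was under 0.01 on all 4 arrays, with nicotine higher, for 8 contigs in all (0.106%), and these 8 were all among the 29. The scanner p comes from the same spot ratios that made the choice, so nothing is read from this overlap. The 8 were contig300, contig3421, contig3790, contig8083, contig717, contig8414, contig8513 and contig1068.

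Leaving 1 replicate out of the choice gives a reading of contigs in data that did not pick them. The cut-off of 0.4 was met in replicates 1 and 2 by 217 contigs, and 29 of these (13.4%) met it in replicate 3, where 29.0% of all contigs did. Of the 217, 72.8% were at -0.4 or lower in replicate 3. The share of the chosen contigs that met the cut-off in replicate 3 was thus below the share of all contigs, and most of them lay in the opposite direction.

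The other choices ran the same way. Replicates 1 and 3 gave 157 contigs, of which 18.5% met the cut-off in replicate 2, against 27.5% of all contigs. Replicates 2 and 3 gave 484 contigs, of which 5.99% met it in replicate 1, against 9.82% of all. The number that met it is 29 in each case, since the same contigs are counted. With normexp and loess the shares were 15.9%, 18.5% and 7.21% for replicates 3, 2 and 1, against 29.3%, 24.4% and 9.45% of all contigs.

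Larger differences gave few contigs. At a cut-off of 1, 49 contigs were chosen on replicates 1 and 2 and 10.2% of them met the cut-off in replicate 3, against 10.5% of all contigs. Of 29 contigs chosen on replicates 1 and 3, 17.2% met it in replicate 2, against 9.57% of all. Of 56 chosen on replicates 2 and 3, 8.93% met it in replicate 1, against 3.07% of all. Each of these shares counts the same 5 contigs, named above, too few to set them apart from the shares of all contigs. At -1 or lower in the replicate left out were 44.9% of the 49 contigs in replicate 3, 41.4% of the 29 in replicate 2 and 62.5% of the 56 in replicate 1. Of all contigs, 12.5%, 4.05% and 6.8% were. As at 0.4, more of the chosen contigs lay in the opposite direction than met the cut-off. Contigs are not independent of each other, and no p is given for these differences.

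**Figure D3:**
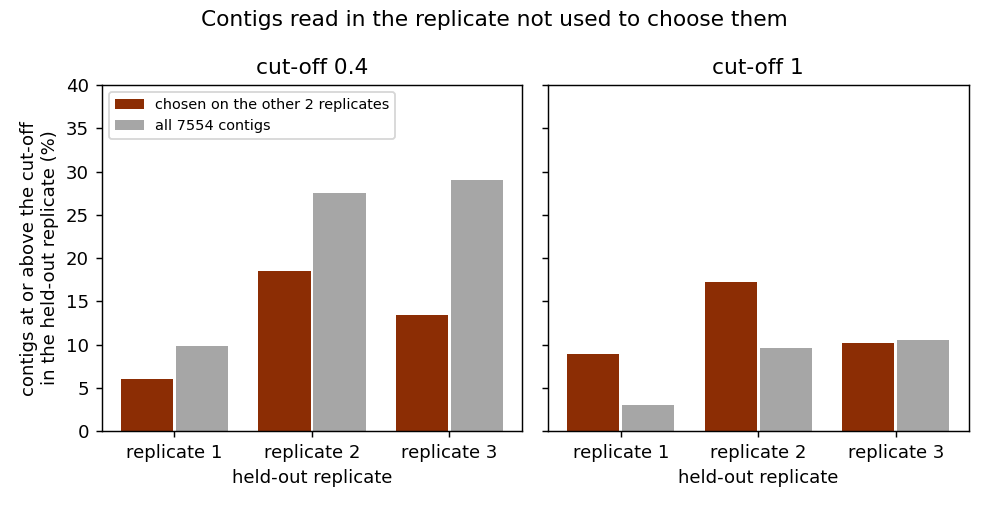
Share of contigs (%) at or above the cut-off in a replicate, for contigs chosen at that cut-off in the other 2 replicates (brown) and for all 7554 contigs (grey), at a cut-off of 0.4 (left) and 1 (right). At 0.4 the brown bars are below the grey ones for each replicate, and at 1, where each brown bar counts 5 contigs, they are above for replicates 1 and 2 and slightly below for replicate 3.

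Set beside the other directions, a difference of 1 sign in all replicates was uncommon. At a size of 0.4 in each replicate, 29 contigs were higher in all 3 and 3 were lower in all 3. The 3 lower ones, named here after their values were seen, were contig2799, contig4257 and contig8798. For 158 contigs nicotine was the higher in replicates 1 and 2 but the lower in replicate 3. For 322 it was the lower in replicate 1 but the higher in the other 2. The remaining mixed directions held between 58 and 235 contigs. At a size of 1 in each replicate, 5 contigs were higher in all 3, none (0) was lower in all 3, and the mixed directions held between 2 and 35.

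The cut-off used the difference between the channels of an array, not their mean level. The mean level of a contig was the average log2 processed signal of both channels, relative to the median contig probe of the array. The filter did use signal strength, for all 7554 contigs. Through the 8 contigs named above, which passed it in at least 1 replicate by nicotine signal alone, the level is not wholly free of the choice. The mean level was highest in replicate 1 for 26 of the 29 contigs (89.7%), against 33.2% of all contigs. It was lowest in replicate 3 for 27 of the 29 (93.1%), against 29.8% of all. The exceptions were contig1338, contig2166 and contig6091, which were highest in replicate 2, and contig125 and contig2261, which were lowest in replicate 2. Most of the 29 thus shared a level pattern across replicates, in nicotine-fed and control insects together.

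The size of that pattern was large. The mean level of the 29 was higher in replicate 1 than in replicate 3 by a median of 1.94 on the log2 scale, or 3.84-fold, with a range from 0.25 to 4.27. The median over all contigs was -0.09. A difference of at least 1 was found for 21 of the 29 (72.4%) and for 7.86% of all contigs. The contigs whose ratio was largest in replicate 1 had a median level difference of 2.54, and the 15 others had one of 1.53.

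Both channels carried it. Each channel's level holds the mean level and a part of the ratio, so the values by channel are not free of the choice. Control RNA of the 29 was higher in replicate 1 than in replicate 3 by a median of 1.54, against -0.04 over all contigs, and nicotine RNA by 2.08, against -0.06. The control level was lowest in replicate 3 for 26 of the 29, against 32.4% of all contigs. The nicotine level was highest in replicate 1 for 25 of the 29, against 26.2% of all. The SD of a contig's control level over replicates had a median of 0.84 among the 29 and 0.39 among all contigs. For nicotine levels these values were 1.12 and 0.39.

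After normexp, loess and scaling of mean levels between arrays, the level was highest in replicate 1 for 25 of the 29, against 29.2% of all contigs, and lowest in replicate 3 for 28, against 32.5%. The median difference of the 29 was then 1.87. Among the 20 contigs with control signal well above background on every array, it was highest in replicate 1 for 17, against 33.7% of the 7100 such contigs, and lowest in replicate 3 for 20, against 30.5%. In the 158 contigs of opposite sign in replicate 3 alone, higher elsewhere, the level was highest in replicate 1 for 36.7% and lowest in replicate 3 for 57.6%. In the 322 of opposite sign in replicate 1 alone, higher elsewhere, these shares were 32.9% and 15.8%. Replicates differ in RNA, array and labelling at once, and the part of each in this pattern was not tested.

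**Figure D4:**
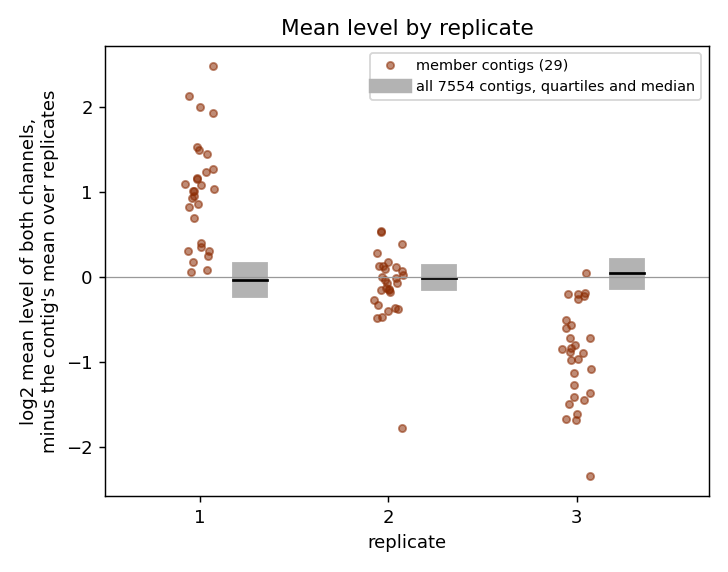
Log2 mean level of both channels in each replicate, minus the contig's own mean over the 3 replicates (y axis), for the 29 contigs (brown points) and all 7554 contigs (grey boxes, from the lower to the upper quartile with the median as a line). The brown points lie above 0 in replicate 1 and all but 1 lie below 0 in replicate 3, while the grey boxes stay near 0.

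For some of the 29, the level in 1 replicate of nicotine-fed insects was below that of control insects in another. For contig300 the control level was -0.11, -1.17 and -2.05 in replicates 1, 2 and 3, and the nicotine level was 1.17, 0.32 and -0.75. The groups overlapped, since nicotine in replicate 3 was below control in replicate 1. For contig3421 the control level was -0.88, -3.01 and -3.41 and the nicotine level was 3.05, -0.04 and -2.02. Here too nicotine in replicate 3 was below control in replicate 1. Only the pairing within an array separates the diets for such contigs.

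The lowest nicotine level lay above the highest control level for 6 of the 29 and for 31 (0.41%) of all contigs, and the choice favours the former count. The reverse, with the lowest control level above the highest nicotine level, was found for 74 (0.98%) of all contigs. The 6 were contig1068, contig1338, contig164, contig2261, contig2605 and contig6091. The control level of contig2261 was not well above background on any array, so its place among the 6 rests on signals near background. For contig1068 the control level was 4.65, 4.08 and 3.59 and the nicotine level was 5.49, 5.0 and 5.43 in replicates 1, 2 and 3. For contig164 the control level was 5.26, 4.70 and 3.32 and the nicotine level was 5.94, 5.40 and 6.55. The high ratio of contig164 in replicate 3 thus came with its lowest control level and its highest nicotine level.

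**Figure D5:**
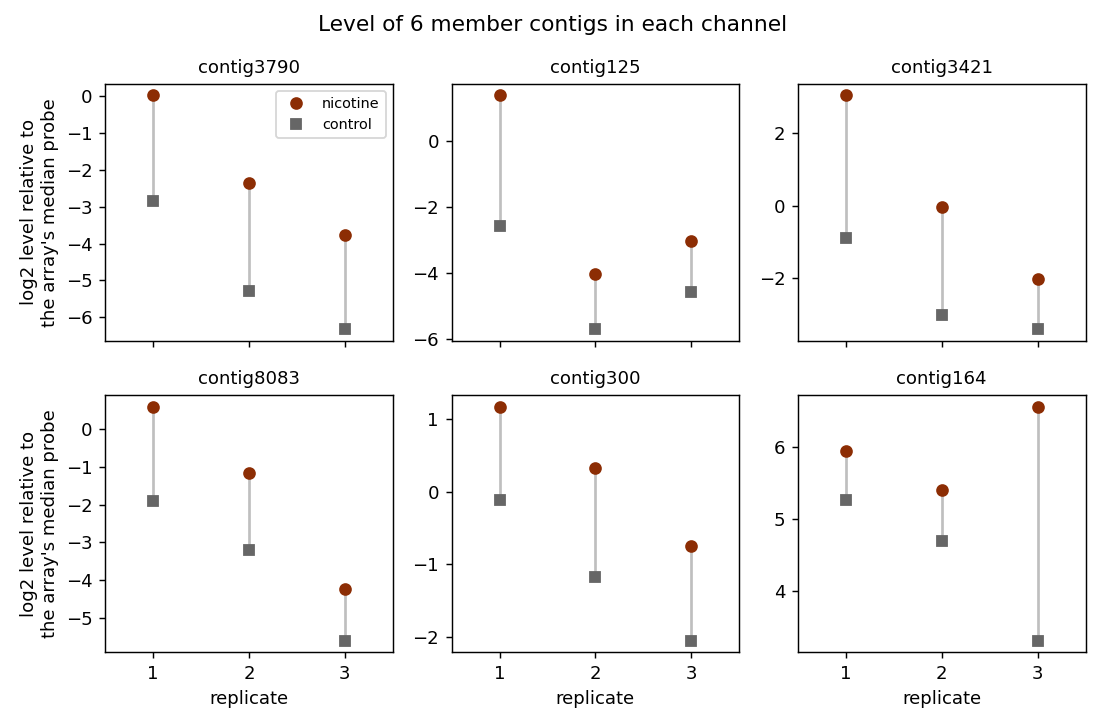
Log2 level relative to the median contig probe of the array (y axis, scaled per panel) in nicotine-fed (circles) and control (squares) insects for the 5 contigs at least 2-fold higher in every replicate and for contig164, with grey lines joining the RNA pair of an array. For contig300, contig3421, contig3790 and contig8083 both levels are highest in replicate 1 and lowest in replicate 3.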

How the data were processed

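Head RNA was measured on 4 2-colour arrays. Per the file headers, Agilent Feature Extraction 10.1.1.1 gave the deposited processed intensity values (background-subtracted and dye-normalized), the median spot and background intensity, a log10 ratio of red over green, a p-value per spot and flags; the log10 ratio was not used. The authors' deposited value table holds log2 ratios, and the submitters' processing notes name limma. Its red over green values correlated at 0.9988 or more with normexp and loess ratios, and its medians lay between -0.0162 and 0.00401. Scale, channel order and centring follow from this comparison, but which RNA carried which dye rests on the labels. Between 78.2% and 88.2% of contig probes were well above background in at least 1 channel of an array. The number of arrays limits the precision.

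Log2 ratios of processed signals were centred on the median of the contig probes that passed the filter on each array, turned by the dye labels, averaged over both arrays of replicate 2 and then over the probes of a contig. Levels were centred in the same way. The fit was limma 3.58.1 in R 4.3.3, with an intercept, two-sided, with Benjamini-Hochberg adjustment over 7554 contigs. A run on simulated ratios with planted shifts required only that the mean shift was recovered, which says nothing of the error rate. With 3 replicates an exact sign-flip test cannot give a p under 0.25. All arrays lay on 1 slide with 1 scan time in the headers. The contigs named were those at 1 or more in all replicates, then those with the largest lowest ratio up to 12, the 3 on each side of the cut-off, those whose probes or repeat arrays differed most and the 3 with the strongest control signal; others are named to complete a group. Members, rule and lists were chosen with earlier results of these data known.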

Additional observations from a re-analysis of the deposited data

How the results depend on the processing

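The count of contigs at or above the cut-off in all replicates, 29 as reported, was 45 at a cut-off of 0.3 and 5 at a cut-off of 1. Asking for only the other 2 replicates, with each replicate left out in turn, it was between 157 and 484. It was between 20 and 35 in the other settings, where 29 with normexp and loess shared 25 contigs with the reported set and 31 from the authors' deposited table shared 25. The 20 came from contigs well above background in both channels on every array, and 19 of them were shared. Centring on all non-control probes gave 30, centring on all spots gave 26, and asking for control signal on every array gave 20; these 3 settings were chosen after seeing the data. The median mean log2 ratio of the 29 was between 0.92 (without replicate 1) and 1.31 (without replicate 2) and 1.05 with normexp and loess. In limma 0 contigs passed in all 10 alternatives, with a lowest adjusted p of 0.6557 (without replicate 3). Between 24 and 123 contigs lay under an unadjusted p of 0.05. Without replicate 2, which leaves nicotine RNA in green only, 47 of 114 were higher and 67 lower. The share in replicate 1 of contigs chosen on replicates 2 and 3 was 8.93% at a cut-off of 1, against 5.99% as reported. The fold of contig3790 and contig2261 was 3.67 and 2.02 with normexp and loess, against 6.88 and 3.52. The causes of these shifts were not tested. Signal near background limits 9 of the 29 contigs.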

Other observations

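Of the 594 contigs whose mean level was at least 1 log2 unit higher in replicate 1 than in replicate 3, 573 were not among the 29. The log2 ratio of nicotine over control was 0.4 or more for 30.3% of the 594 in replicate 1, 49.8% in replicate 2 and 50.5% in replicate 3, where 9.82%, 27.5% and 29.0% of all contigs were. It was -0.4 or lower for 13.6%, 11.8% and 26.8% of the 594, against 17.0%, 23.6% and 29.4% of all contigs. Of the 416 contigs with the opposite level difference, none (0) was among the 29. The rule took 0.384% of all contigs, and 416 contigs are too few to tell 0 apart from that share. Of the 416, 18.8%, 53.6% and 22.8% were at 0.4 or more in replicates 1, 2 and 3. At -0.4 or lower were 39.9%, 24.3% and 52.4% of the 416, against 17.0%, 23.6% and 29.4% of all contigs. These bounds were chosen after seeing the data and no test was made.

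Targets with accession or clone names were outside the rule. Of these, 144 passed the same filter, and none (0) reached 0.4 in all 3 replicates. Among contigs the share was 0.384%, and 144 targets are too few to tell 0 apart from it.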
